A study of Mus musculus with 12 samples.

Results

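Interferon-stimulated genes were measured in mouse heart as 44 listed genes, found by symbol among the 49315 genes of the count tables. Each of the 44 matched 1 identifier, had counts in all 12 libraries and passed the filter on low counts. The heart RNA came from wild-type C57BL/6 females (C57BL/6J in the protocol) aged 27 to 29 weeks, in 4 groups of 3 libraries. The control diet drew 10% of its energy from fat. The Western diet drew 45% from fat and 17% from sucrose, and feeding ran for 15 weeks before breeding and onward. Postpartum mice were then bred and sampled at day 1 after delivery, and nonpregnant mice stayed on the diet for as long without breeding. The study asked how a metabolic syndrome brought on by diet affects the heart in pregnancy. Below, the groups are called control nonpregnant, control postpartum, Western nonpregnant and Western postpartum. Replicates are numbered in accession order and are not paired between groups. The labels call the libraries separate samples but do not say that each is a separate animal, so the p-values below reflect the scatter among libraries, which may be technical.

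Interferons are secreted proteins that warn cells of viral infection. Type I interferons bind the receptor IFNAR, whose kinases JAK1 and TYK2 phosphorylate STAT2. With IRF9 it forms part of a complex that binds the interferon-stimulated response element in the promoters of target genes. Interferon gamma, made by T and NK cells, acts through gamma-activated sites and induces guanylate-binding proteins (GBPs) and immunity-related GTPases (IRGs) most strongly. The products of the target genes sense viral nucleic acids, block viral entry, translation and replication, and feed back on the signal. Many are also transcribed at a low level without infection, in heart as in other tissues.

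The response element is visible in the promoters of these genes. RefSeq promoter windows on GRCm38.p6, from 250 bases before to 50 bases after the transcription start, were at hand for 32 of the 44 genes. The core searched was GAAA, any 2 bases and GAAA, on either strand, and it was present in 19 of the 32 genes (59.4%) against 3.99% of all genes with a window. A longer form, the core followed by CT, was present in 12 of 32 (37.5%) against 0.303%, and each match to it is also a match to the core. The gamma-activated site, searched as TTC, any 3 bases and GAA, was present in 8 of 32 (25%) against 9.55%. All 5 GBP and IRG genes with a window held the core, as did 3 of 4 IFIT genes and 5 of 7 other antiviral effectors, but 0 of 3 in the mixed group of other induced genes. A match is a description of the letters and not a measured binding site. The stretches below are shown because they hold the core upstream of genes whose levels are described further on, from 24 bases (Igtp) to 144 bases (Ifit3b) before the transcription start. Each is written 5′ to 3′ on the strand of the gene, and capitals mark copies of the core (TTTC, 2 bases and TTTC where it lies on the other strand).
Isg15, chr4:156200840-156200919, minus strand: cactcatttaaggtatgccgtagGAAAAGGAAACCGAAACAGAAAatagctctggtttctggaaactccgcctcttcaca
Ifit1, chr19:34640769-34640848, plus strand: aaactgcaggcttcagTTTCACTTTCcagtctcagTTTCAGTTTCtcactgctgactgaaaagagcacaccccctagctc
Ifit3, chr19:34583372-34583451, plus strand: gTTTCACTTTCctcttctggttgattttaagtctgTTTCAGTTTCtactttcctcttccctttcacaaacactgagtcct
Ifit3b, chr19:34607768-34607847, plus strand: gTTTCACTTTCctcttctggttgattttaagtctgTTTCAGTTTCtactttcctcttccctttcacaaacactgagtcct
Rsad2, chr12:26456528-26456607, minus strand: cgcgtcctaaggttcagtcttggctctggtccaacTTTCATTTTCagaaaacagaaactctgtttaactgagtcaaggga
Gbp2, chr3:142620569-142620648, plus strand: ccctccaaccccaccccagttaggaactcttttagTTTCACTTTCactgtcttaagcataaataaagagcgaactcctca
Gbp7, chr3:142530248-142530327, plus strand: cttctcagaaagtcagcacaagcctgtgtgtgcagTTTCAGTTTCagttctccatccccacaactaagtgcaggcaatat
Igtp, chr11:58199487-58199555, plus strand: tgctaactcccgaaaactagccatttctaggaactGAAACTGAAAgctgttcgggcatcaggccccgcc

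Isg15 held 3 overlapping copies, Ifit1, Ifit3 and Ifit3b held 2 separate copies each, and the stretches of Rsad2, Gbp2, Gbp7 and Igtp held 1. The stretches of Ifit3 and Ifit3b, neighbours on chromosome 19, were identical, and their windows shared an unbroken run of 169 bases. The transcripts of these genes are also near copies of each other, so reads could be split between them and their separate counts are uncertain.

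Library totals ran from 22754591 to 29492416 counts, so that 3 counts, the upper limit that a count of 0 allows, came to 0.0974 to 0.136 CPM on the scaled library sizes, for counting error only. CPM, the usual counts-per-size unit of RNA sequencing, is a count divided by the scaled size of its library. Cardiomyocyte markers summed to 99672 to 118809 CPM in the 12 libraries, as the heart label requires. Control postpartum replicate 3 stood apart with a summed adipocyte marker level of 322 CPM, against 89.3 to 135 CPM in the other 11 libraries. Title numbers of postpartum libraries all precede those of nonpregnant ones, so anything that goes with that order cannot be told apart from pregnancy. In whole tissue, fewer cells of a type and less RNA per cell cannot be told apart either.

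Per length, Ifitm3 was the most abundant member, at a mean of 107 CPM per kilobase of exon (RPKM) over the 12 libraries. Its product is a membrane protein that blocks the fusion of viruses with endosomes. Ifi27l2a followed at 40.2 RPKM and Bst2, the tetherin that holds budding virions on the cell, at 27.3 RPKM. The lowest were Mx1 at 0.233 RPKM and Oas3 at 0.0934 RPKM. In C57BL/6 mice the Mx1 gene is known to carry a deletion that abolishes its protein, and the annotation lists Mx2 as a polymorphic pseudogene. All further levels are in CPM, which serves to compare libraries for 1 gene.

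**Figure D1:**
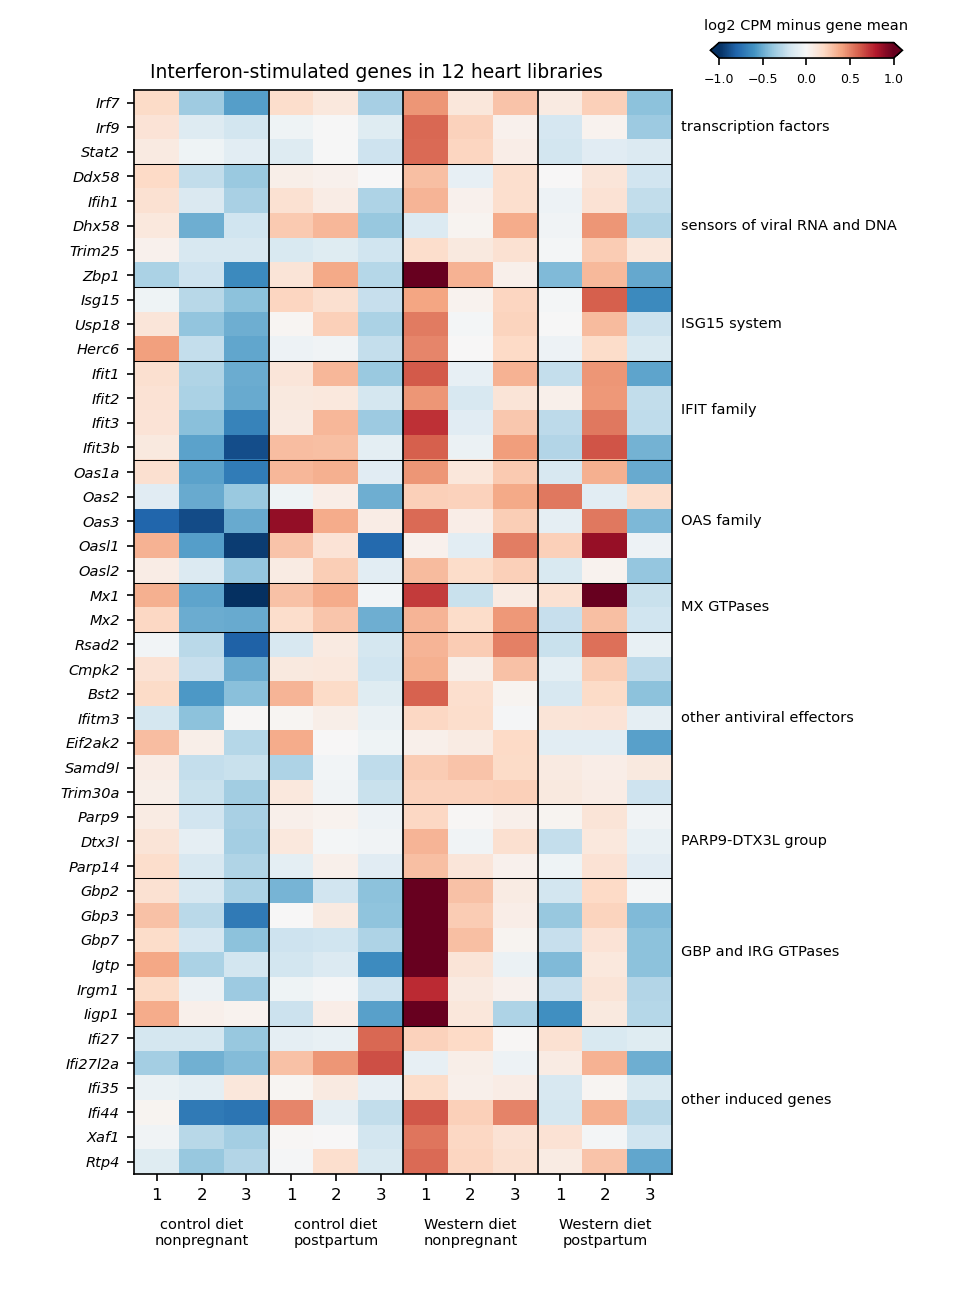
Heat map of the 44 interferon-stimulated genes (rows, grouped by role) in the 12 heart libraries (columns, replicates 1 to 3 of each group); colour gives log2 CPM minus the mean of the gene over all libraries, with the scale ending at -1 and 1. Control nonpregnant replicates 2 and 3 are mostly blue, Western nonpregnant replicate 1 is red in nearly all rows and darkest in the GBP and IRG genes, and columns within 1 group differ from each other.

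The members' levels differed between libraries of the same group, and they did so together. In control nonpregnant hearts, 39 of the 44 were highest in replicate 1, where 38.7% of all genes tested were highest, and 34 were lowest in replicate 3, where 33% of all genes were lowest. Among control postpartum hearts 28 were highest in replicate 2 (34.6% of all genes) and 40 were lowest in replicate 3 (32.4%). In Western nonpregnant hearts 35 were highest in replicate 1 (37%), and the lowest library was replicate 2 for 24 members and replicate 3 for 16. In Western postpartum hearts 39 were highest in replicate 2 (36%) and 31 were lowest in replicate 3 (31.4%). A set of 29 members was highest in all 3 of control nonpregnant replicate 1, Western nonpregnant replicate 1 and Western postpartum replicate 2, as were 6.78% of all genes. This combination of libraries was chosen after the values were seen.

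Summed over the 44 genes, the level was 764, 609 and 584 CPM in control nonpregnant replicates 1 to 3 and 716, 744 and 644 CPM in control postpartum replicates. It was 1058, 787 and 776 CPM in Western nonpregnant and 682, 809 and 627 CPM in Western postpartum replicates. The 4 ranges overlap, except that Western nonpregnant libraries all lay above those of both control groups. On the log2 scale, the median of the members against each gene's own mean ran from -0.38 in control nonpregnant replicate 3 to 0.44 in Western nonpregnant replicate 1, while the median of all genes tested stayed within 0.01 of 0 in every library. The group means of these library medians were -0.17 ± 0.27 in control nonpregnant, -0.02 ± 0.16 in control postpartum, 0.24 ± 0.18 in Western nonpregnant and -0.05 ± 0.23 in Western postpartum hearts (SD, n = 3). The gap between Western nonpregnant hearts and each other group was larger than the SDs of both groups compared. The gaps among the other groups were smaller than the SDs.

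**Figure D2:**
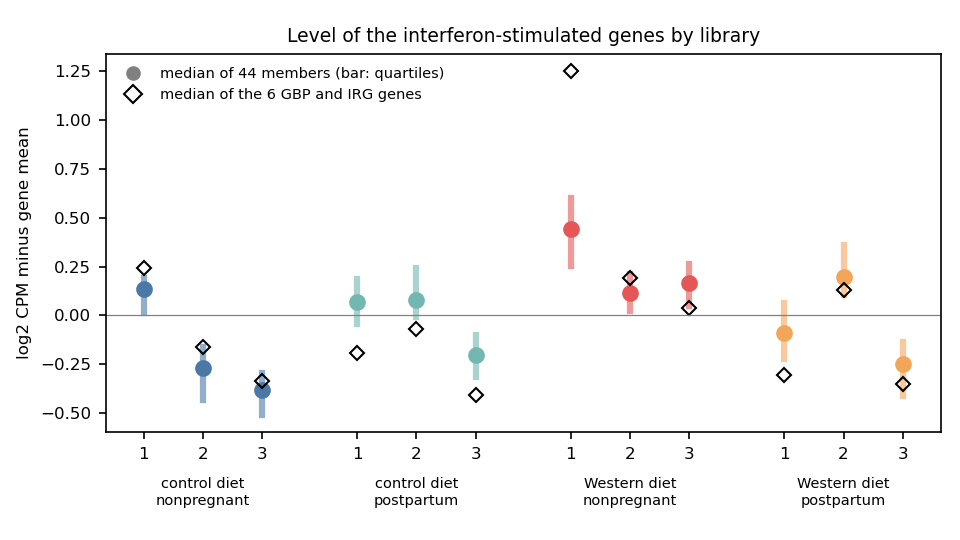
Median of the 44 members in each library (filled points, with bars from the first to the third quartile) and of the 6 GBP and IRG genes (open diamonds), as log2 CPM minus the mean of each gene. The 6 GBP and IRG genes reach 1.25 in Western nonpregnant replicate 1 and lie between -0.41 and 0.24 in the other 11 libraries.

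The pooled within-group SD of log2 CPM had a median of 0.29 over the members and of 0.15 over all genes tested. The biological coefficient of variation estimated by edgeR had a median of 16.3% over the members against 9.24%, and 39 of 44 lay above the trend for their level, as did 27.7% of all genes. Since low counts vary more, each gene was also set among the genes of like level, a step added after the values were seen. There 27 of the 44 (61.4%) lay above the 90th percentile, which 10.1% of all genes exceed, and all but Oas3 and Ifi35 lay above the median. The 5 members with the largest spread were Mx1 (SD 0.72), Igtp (0.57), Oasl1 (0.52), Iigp1 (0.47) and Gbp3 (0.47). The 3 with the smallest were Ifi35 (0.09), Trim25 (0.10) and Samd9l (0.12).

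**Figure D3:**
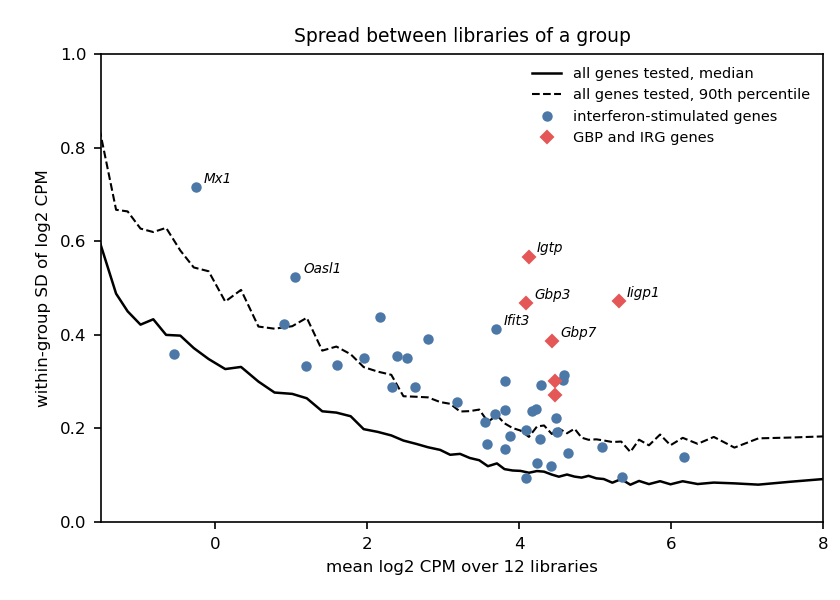
Within-group SD of log2 CPM (y axis) against mean log2 CPM over the 12 libraries (x axis) for each member, with the median and 90th percentile of all genes tested at the same level as lines. Members are blue circles, the GBP and IRG genes red diamonds, and 27 of the 44 lie above the dashed line of the 90th percentile.

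The signal carriers come first. Stat2, a part of the type I interferon complex, stood at 26.5, 24.1 and 23.1 CPM in control nonpregnant, 22.7, 24.8 and 21.5 in control postpartum, 36.8, 28.9 and 26.1 in Western nonpregnant and 21.9, 22.9 and 22.6 in Western postpartum hearts. Irf9, which gives that complex its DNA contact, stood at 24.7, 20.5 and 19.7, at 21.9, 22.4 and 20.6, at 33.5, 26.3 and 23.1 and at 20.01, 23.0 and 17.5 CPM in the same order. On the Western diet both genes were higher in every nonpregnant library than in any postpartum one, with log2 fold changes of -0.44 (SE 0.11, adjusted p = 0.0859) for Stat2 and -0.45 (SE 0.13, adjusted p = 0.142) for Irf9 postpartum, neither past the threshold of 0.05 of the edgeR quasi-likelihood test with Benjamini-Hochberg adjustment over all genes. DESeq2 called both. Irf7, the master amplifier of interferon production, ranged from 9.58 to 19.2 CPM. Its locus overlaps Phrf1 on the opposite strand, and Irf9 overlaps Rnf31 on the same strand, so reads there may be shared.

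Among the sensors of viral nucleic acids, Trim25 had the smallest spread. This ubiquitin ligase, which activates the RNA sensor RIG-I, stood at 41.9, 36.5 and 36.4 CPM in control nonpregnant, 36.6, 37.4 and 35.4 in control postpartum, 45.9, 43.6 and 45.2 in Western nonpregnant and 40.1, 48.7 and 44.1 in Western postpartum hearts. It was higher on the Western diet in each library of both pregnancy states without overlap. Postpartum its log2 fold change for diet was 0.28 (SE 0.08, adjusted p = 0.104), which edgeR did not call and DESeq2 did. Ddx58, which encodes RIG-I, stood at 19.5, 14.3 and 13.1, at 17.7, 17.5 and 17.0, at 20.9, 16.0 and 19.0 and at 17.0, 18.5 and 14.8 CPM in the order above, and its groups overlap. Zbp1, a sensor of Z-form nucleic acids, stood at 4.17 CPM in Western nonpregnant replicate 1 and at 1.13 to 2.36 CPM in the other libraries. Ifih1, the RNA sensor MDA5, ranged from 9.30 to 14.9 CPM and Dhx58, its relative LGP2, from 2.10 to 4.07 CPM.

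The ISG15 system attaches a ubiquitin-like tag to proteins. Isg15, the tag itself, stood at 4.999, 4.24 and 3.86 CPM in control nonpregnant, 5.99, 5.78 and 4.38 in control postpartum, 6.83, 5.30 and 6.02 in Western nonpregnant and 5.11, 7.84 and 3.30 in Western postpartum hearts. Western postpartum replicates 2 and 3 were the highest and lowest of all 12 libraries. Herc6, the mouse ligase for ISG15, stood at 8.14, 5.17 and 4.22, at 5.89, 5.93 and 5.16, at 8.59, 6.10 and 7.01 and at 5.88, 6.92 and 5.48 CPM in that order. Usp18, the protease that removes the tag and damps the receptor, ranged from 3.49 to 7.13 CPM.

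IFIT proteins bind viral RNA that lacks the host cap. Ifit2 stood at 21.4, 15.6 and 13.7 CPM in control nonpregnant, 20.8, 20.9 and 17.1 in control postpartum, 26.5, 17.4 and 21.3 in Western nonpregnant and 20.2, 26.3 and 16.4 in Western postpartum hearts. Ifit3 stood at 14.2, 9.58 and 8.08, at 13.7, 16.2 and 9.97, at 21.3, 11.9 and 15.5 and at 10.7, 18.6 and 10.7 CPM in that order. Within each group the highest library was the same for Ifit3, Ifit1 and the members as a whole, and all groups overlap. Ifit1 ranged from 4.75 to 10.6 CPM and Ifit3b from 2.36 to 6.87 CPM.

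OAS enzymes make the 2'-5' oligoadenylates that switch on RNase L, an activity that OASL1 lacks. Oas2 did not follow the common order of libraries on the Western diet. It stood at 17.2, 13.2 and 14.4 CPM in control nonpregnant, 18.1, 19.6 and 13.3 in control postpartum, 21.99, 21.97 and 24.3 in Western nonpregnant and 27.0, 17.4 and 21.1 in Western postpartum hearts. Every Western diet library was above every control nonpregnant one, and Western postpartum replicate 2, high for most members, was the lowest of its group. Oasl2 stood at 15.5, 13.4 and 11.2, at 15.5, 17.4 and 13.7, at 18.3, 16.7 and 17.4 and at 13.2, 15.1 and 11.2 CPM in the same order. Oasl1, which restrains the translation of IRF7, stood at 2.57, 1.34 and 0.998, at 2.45, 2.21 and 1.14, at 2.06, 1.86 and 2.89 and at 2.37, 3.72 and 1.93 CPM. Oas3 was listed at 0.294 to 0.408 CPM in control nonpregnant hearts and at 0.428 to 1.19 CPM elsewhere, and Oas1a ranged from 2.31 to 5.20 CPM.

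The MX genes were among the members with the lowest levels. Mx1 stood at 1.00, 0.504 and 0.136 CPM in control nonpregnant, 0.953, 1.01 and 0.747 in control postpartum, 1.29, 0.644 and 0.81 in Western nonpregnant and 0.858, 1.62 and 0.642 in Western postpartum hearts. Its lowest value, in control nonpregnant replicate 3, is no more than the 3 counts a count of 0 allows. Mx2 stood at 2.57, 1.55 and 1.54, at 2.52, 2.71 and 1.56, at 2.83, 2.54 and 3.03 and at 1.88, 2.76 and 1.93 CPM in that order.

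Among the other antiviral effectors, Ifitm3 stood at 63.8, 54.3 and 72.5 CPM in control nonpregnant, 73.0, 74.9 and 69.0 in control postpartum, 83.4, 81.6 and 71.6 in Western nonpregnant and 79.0, 79.4 and 67.7 in Western postpartum hearts. Bst2 stood at 27.4, 16.1 and 17.9, at 30.3, 27.3 and 22.01, at 36.1, 27.0 and 24.5 and at 21.5, 27.4 and 18.0 CPM in that order. Both overlap between all pairs of groups. Rsad2, the antiviral enzyme viperin, ranged from 13.5 to 34.8 CPM, and its neighbour on chromosome 12, Cmpk2, a nucleotide kinase, from 9.85 to 17.8 CPM. Eif2ak2, the kinase PKR that stops translation, ranged from 8.78 to 16.6 CPM, Samd9l, a growth and translation repressor, from 17.1 to 25.9 CPM and Trim30a from 11.03 to 16.5 CPM.

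PARP9 and DTX3L form a complex that modifies histones, and PARP14 is a related ADP-ribosyltransferase. Parp14 stood at 38.5, 30.5 and 27.7 CPM in control nonpregnant, 31.8, 35.3 and 31.5 in control postpartum, 42.0, 37.0 and 35.1 in Western nonpregnant and 33.0, 37.7 and 31.4 in Western postpartum hearts. Dtx3l stood at 21.1, 18.1 and 15.2, at 20.7, 19.1 and 18.8, at 24.4, 18.8 and 21.6 and at 16.4, 20.8 and 18.3 CPM in that order. These 3 genes spread less than most members, with Parp9 between 15.0 and 21.7 CPM, and Parp9 and Dtx3l overlap on opposite strands.

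GBP and IRG proteins are GTPases that attack the membranes around intracellular pathogens. Western nonpregnant replicate 1 stood far above its group in all 6. Igtp, an IRG known as IRGM3, stood at 22.8, 14.0 and 15.3 CPM in control nonpregnant, 15.3, 15.9 and 11.2 in control postpartum, 58.2, 19.0 and 16.7 in Western nonpregnant and 12.8, 18.7 and 13.1 in Western postpartum hearts. The highest Western nonpregnant library was 3.49 times the lowest. Iigp1, an effector IRG, stood at 51.2, 41.1 and 40.5, at 34.1, 41.5 and 27.1, at 93.2, 42.9 and 31.9 and at 25.9, 42.4 and 32.5 CPM in that order. Gbp2 stood at 24.6, 19.9 and 17.8, at 16.0, 19.4 and 16.7, at 45.4, 27.2 and 23.4 and at 19.5, 25.5 and 21.8 CPM. For Gbp3 the values were 20.9, 14.1 and 10.4, then 17.0, 18.1 and 12.9, then 41.1, 20.3 and 17.8, and last 13.03, 19.9 and 12.5 CPM. The other 2 Western nonpregnant libraries lay within the control nonpregnant range for Igtp and Gbp3, and 1 lay above it for Gbp2 and 1 below it for Iigp1. Gbp7 reached 52.0 CPM there against 16.1 to 26.4 CPM in the other 11 libraries, and Irgm1, a regulator of the other IRGs, 37.3 CPM against 17.3 to 25.4 CPM. Igtp and Irgm2 overlap on the same strand and may share reads.

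The remaining genes are a mixed group. Ifi27, a mitochondrial and nuclear envelope protein, stood at 19.8, 19.8 and 17.2 CPM in control nonpregnant, 21.1, 21.3 and 33.5 in control postpartum, 26.2, 25.7 and 22.6 in Western nonpregnant and 24.9, 20.2 and 20.6 in Western postpartum hearts. Ifi27l2a, its paralog beside it on the other strand of chromosome 12 (chr12:103442167-103443680, GRCm38), stood at 14.2, 12.9 and 13.3, at 22.03, 24.5 and 28.2, at 17.0, 18.7 and 17.4 and at 19.1, 23.0 and 12.8 CPM in that order. Both were highest in control postpartum replicate 3, the library with the adipocyte markers, in which 40 of the other members had their lowest value of the group. Paralogs may also share reads. The part of fat tissue in these values was not tested. Xaf1, a proapoptotic protein, ranged from 9.39 to 17.3 CPM, Ifi44, a GTP-binding protein, from 3.40 to 8.80 CPM, Rtp4, a chaperone of membrane receptors, from 6.25 to 13.3 CPM and Ifi35 from 15.2 to 19.3 CPM.

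**Figure D4:**
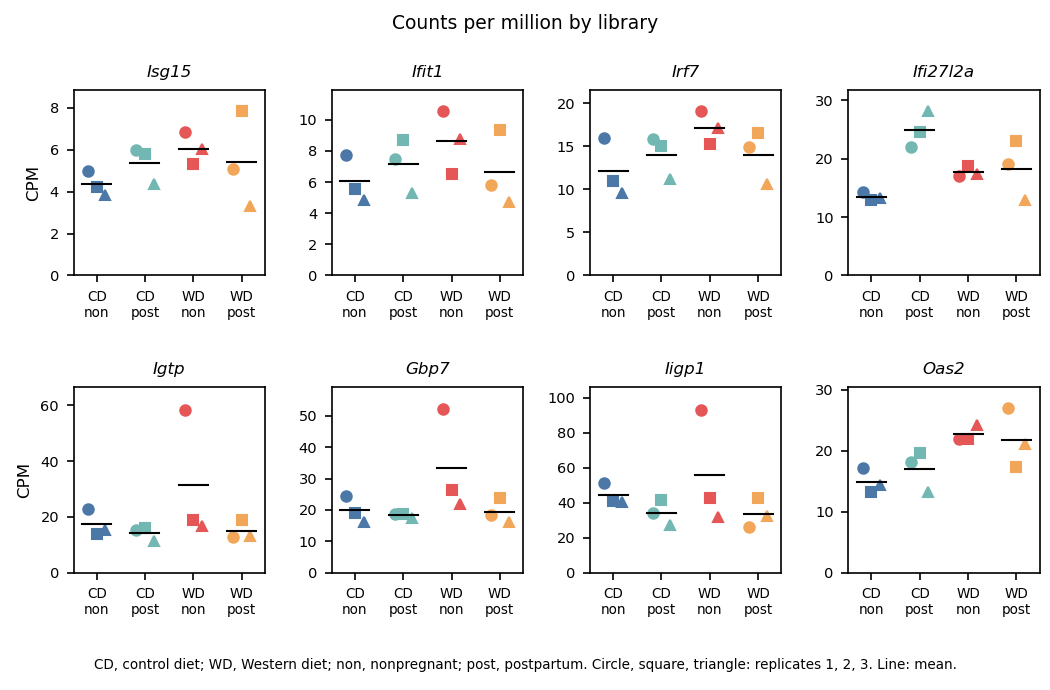
CPM by library for 8 members in the 4 groups (circle, square and triangle for replicates 1 to 3, line for the group mean). Isg15, Ifit1 and Irf7 spread within every group, Igtp, Gbp7 and Iigp1 have 1 high Western nonpregnant library, Ifi27l2a separates control postpartum from control nonpregnant hearts, and Oas2 is above all control nonpregnant libraries on the Western diet.

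After pregnancy on the control diet, 1 member changed. Ifi27l2a averaged 13.5 ± 0.673 CPM in nonpregnant and 24.9 ± 3.08 CPM in postpartum hearts (SD, n = 3). It rose by 0.89 on the log2 scale (SE 0.16, edgeR adjusted p = 0.0370). All 3 postpartum libraries were above all 3 nonpregnant ones. Its call held in DESeq2 and limma-voom and was lost with the robust option of edgeR (adjusted p = 0.0592) and without any 1 of 9 libraries, at an adjusted p of up to 0.201 when control nonpregnant replicate 2 was left out and 0.160 without the postpartum library with adipocyte markers. The edgeR test called 0.239% of all genes in this comparison, and 0.207% as higher postpartum. Of the members, 34 of 44 had a positive change (48.2% of all genes) with a median log2 fold change of 0.18 against -0.01 over all genes. An unadjusted p under 0.05 with a higher postpartum level was reached by 3 members, where the share of all genes was 6.44%, and by none with a lower level (6.04% of all genes). Oas3, Ifi27 and Ifi27l2a, 3 members, were higher without overlap (8.12% of all genes) and none were lower (8.96%). Oas3 had the largest estimate, 1.37 (SE 0.36, adjusted p = 0.150), from levels of 0.341 ± 0.0597 and 0.885 ± 0.278 CPM (SD, n = 3). Markers of several cell types had mostly positive estimates in the same comparison, and their part in these values was not tested. Of 18 macrophage markers 17 were positive (median 0.37) and Cd68, C1qa and C1qb passed the test. Of 11 fibroblast markers 9 were positive (median 0.41) and Col1a1 and Col1a2 passed, while 1 of 12 cardiomyocyte markers was positive (-0.11). Adipocyte markers were positive for 8 of 9 (median 4.29), monocyte for 6 of 7 (0.27) and erythrocyte for 7 of 7 (0.21), none called. Adipocyte markers summed to 89.9, 96.7 and 322 CPM in control postpartum replicates 1 to 3. Positive were 3 of 4 neutrophil (0.13), 7 of 14 endothelial (-0.0005), 3 of 9 lymphocyte (-0.09) and 2 of 5 dendritic cell markers (-0.10). The members' median moved to 0.35 without control nonpregnant replicate 1 and to 0.07 without replicate 3.

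On the Western diet the estimates for postpartum against nonpregnant hearts were mostly negative. No member passed the edgeR test, which called 0.588% of all genes and 0.355% as higher, and 3 of 44 had a positive change (49.3% of all genes) at a median of -0.27. The lowest adjusted p was 0.0859, for Stat2, and DESeq2 called 2 members, Stat2 and Irf9, as lower postpartum. An unadjusted p under 0.05 with a lower level was reached by 13 members (29.5%) against 6.62% of all genes, and by none with a higher one (8.12% of all genes). The 8 members that were lower postpartum without overlap (18.2%, against 9.5% of all genes) were Stat2, Irf9, Oasl2, Eif2ak2, Samd9l, Trim30a, Ifi35 and Xaf1. Of the GBP and IRG genes none were among them, although their median was the most negative of the role groups at -0.76, with Igtp at -1.07 (SE 0.38, adjusted p = 0.217), Gbp3 at -0.80 (SE 0.30, adjusted p = 0.243) and Gbp7 at -0.78 (SE 0.26, adjusted p = 0.178). Of 9 lymphocyte markers 1 was positive (median -0.65, none past the threshold). Of 5 dendritic cell markers 3 were positive (median 0.01), while Xcr1 passed the test as lower. Macrophage markers were positive for 14 of 18 (median 0.13) and endothelial markers for 11 of 14 (0.08). Monocyte markers were positive for 5 of 7 (0.26) and erythrocyte markers for 7 of 7 (0.28). The part of these cell types in the members' estimates was not tested. Without Western nonpregnant replicate 1 the median of the 6 GBP and IRG genes was -0.23 and that of all 44 was -0.17. The median of the 44 was -0.43 without Western postpartum replicate 2 and -0.16 without Western postpartum replicate 3.

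Western against control diet in nonpregnant hearts gave the most uniform estimates. All 44 members had a positive log2 fold change, from 0.06 for Eif2ak2 to 1.17 for Oas3, where 49.9% of all genes did, and the median was 0.43 against -0.0006 over all genes. None passed the edgeR test after adjustment, which called 0.0582% of all genes here and 0.0452% as higher, and the lowest adjusted p was 0.210, for Xaf1. An unadjusted p under 0.05 with a higher Western level was reached by 29 members (65.9%), where the share of all genes was 4.63%, and by none with a lower one (4.95%). DESeq2, which also called more of all genes than edgeR here, called 4 members, Ifi44, Oas2, Xaf1 and Rsad2. With no filter on low counts edgeR called 27. That fit had infinite prior degrees of freedom, against 5.74 in the main one, and it also called more of all genes. Markers of several other cell types also had mostly positive estimates here, and their part in the result was not tested. They were positive for 11 of 11 fibroblast markers (median 0.21), 13 of 14 endothelial (0.16), 9 of 9 lymphocyte (0.27) and 17 of 18 macrophage markers (0.15). Neutrophil markers were positive for 3 of 4 (0.35), adipocyte markers for 7 of 9 (0.32) and dendritic cell markers for 4 of 5 (0.22). Monocyte markers were positive for 3 of 7 (-0.06), erythrocyte markers for 1 of 7 (-0.26) and cardiomyocyte markers for 1 of 12 (-0.10). None of these markers passed the threshold. The members moved together between libraries, as described above, so these counts do not hold 44 separate observations. Groups did not overlap for 14 members (31.8%), all higher on the Western diet, against 6.92% of all genes higher and 7.84% lower. They were Zbp1, Trim25, Isg15, Oas2, Oas3, Oasl2, Rsad2, Samd9l, Trim30a, Ifi27, Ifi27l2a, Ifi44, Xaf1 and Rtp4.

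By role, the median estimates for diet in nonpregnant hearts were 0.68 for the 6 GBP and IRG genes and 0.61 for the 2 MX genes. They were 0.58 for the 5 OAS genes, 0.55 for the 4 IFIT genes and 0.46 for the ISG15 system. The other induced genes had 0.45, the other antiviral effectors 0.39 and the transcription factors 0.35. The sensors had 0.28 and the PARP9-DTX3L group 0.24. Ifi44 stood at 0.88 (SE 0.24, adjusted p = 0.276) and Oas2 at 0.60 (SE 0.16, adjusted p = 0.262), from 4.21 ± 1.36 to 7.86 ± 1.06 CPM and from 14.9 ± 2.09 to 22.7 ± 1.32 CPM (SD, n = 3). Rsad2 stood at 0.70 (SE 0.20, adjusted p = 0.280), Xaf1 at 0.51 (SE 0.12) and Samd9l at 0.37 (SE 0.09, adjusted p = 0.246). The GBP and IRG estimates rested in part on 1 library. Their median went from 0.68 to 0.20 without Western nonpregnant replicate 1, and that of the other 38 members from 0.40 to 0.35. Igtp went from 0.83 to 0.04 and Iigp1 from 0.33 to -0.24. The lowest estimates with any 1 library left out were 0.284 for Gbp2, 0.326 for Gbp3 and 0.277 for Gbp7. With each library left out in turn the median of the 44 stayed between 0.33 and 0.61, and 43 or 44 members were positive.

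**Figure D5:**
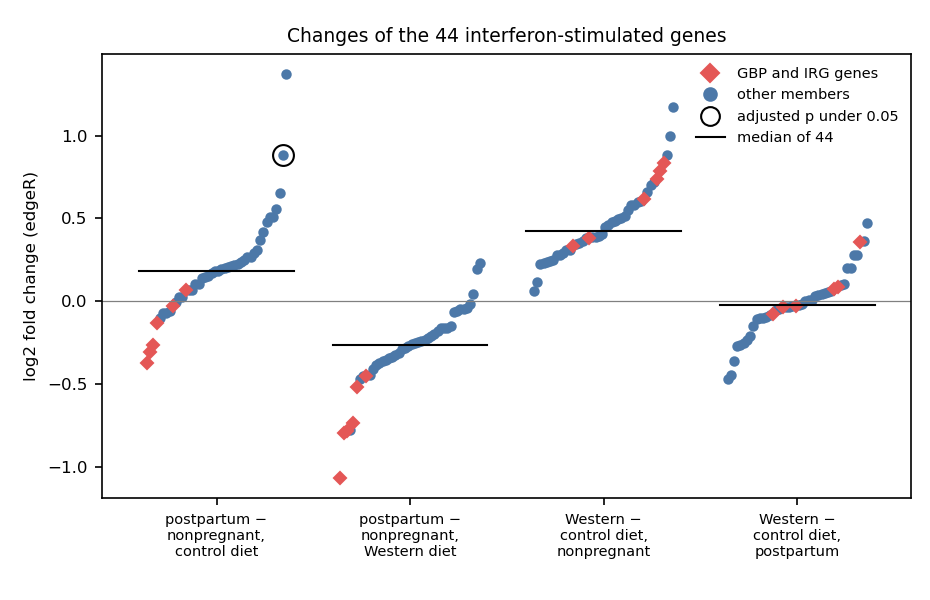
edgeR log2 fold changes of the 44 members in 4 comparisons, sorted within each, with red diamonds for the 6 GBP and IRG genes, a line at the median and a ring around the 1 estimate past the adjusted threshold (Ifi27l2a). In Western against control nonpregnant hearts all 44 points lie above 0, and in postpartum against nonpregnant hearts on the Western diet 41 of 44 lie below 0, in 2 comparisons that share the Western nonpregnant libraries.

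Postpartum, the members did not separate by diet. None passed the edgeR test, which called 0.879% of all genes and 0.646% as higher, and DESeq2 called Trim25. Of the 44, 19 had a positive change (49.9% of all genes) at a median of -0.03. Unadjusted p under 0.05 was reached by 3 members that were higher on the Western diet (7.83% of all genes) and 2 that were lower (6.77%). Groups did not overlap for Gbp2, Samd9l and Trim25, higher on the Western diet (9.86% of all genes), and for Eif2ak2, lower (9.28%). The median ran from -0.17 without Western postpartum replicate 2 to 0.08 without replicate 3, and with them the number of positive members from 8 to 31. Adipocyte markers were positive for 2 of 9 (median -4.38), with Lipe called higher and Slc36a2 lower. Control postpartum replicate 3 had their highest sum. Positive were 1 of 9 lymphocyte (-0.41), 3 of 18 macrophage (-0.17), 4 of 11 fibroblast (-0.22) and 1 of 7 erythrocyte markers (-0.17). So were 13 of 14 endothelial (0.15), 4 of 4 neutrophil (0.38), 5 of 7 monocyte (0.24) and 3 of 5 dendritic cell markers (0.13). Of 12 cardiomyocyte markers 3 were (-0.05). Their part was not tested.

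The series' design sets Western postpartum hearts against control nonpregnant ones as well. None of the 44 passed the edgeR test, which called 2.62% of all genes and 1.45% as higher, and DESeq2 called Oas2, at a log2 fold change of 0.54 by edgeR (SE 0.16, adjusted p = 0.0918). A positive change was found in 34 of 44 (49.6% of all genes), with a median of 0.19, which became 0.00 with 21 positive members when Western postpartum replicate 2 was left out. An unadjusted p under 0.05 with a higher Western postpartum level was reached by 7 (9.71% of all genes), and with a lower level by none (8.45%). Oas2, Oas3 and Ifi27 were higher without overlap (10.3% of all genes) and Stat2 was lower (9.89%). Cell type markers were read here too, and their part in the members' values was not tested. Endothelial markers were positive for 12 of 14 (median 0.23) and Pecam1, Fabp4 and Cldn5 passed the test. Macrophage markers were positive for 17 of 18 (0.25, C1qb called) and fibroblast markers for 9 of 11 (0.26, Pdgfra called). Monocyte markers were positive for 7 of 7 (0.44), neutrophil for 4 of 4 (0.46) and erythrocyte for 5 of 7 (0.03). Of 12 cardiomyocyte markers 0 were positive (-0.15), and Pln was called lower. Positive were 1 of 9 lymphocyte (-0.30), 2 of 5 dendritic cell (-0.10) and 4 of 9 adipocyte markers (-0.04).

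The difference between the diets in the effect of pregnancy was tested as an interaction. It called 0 members and 0% of all genes by edgeR, and 0 members by DESeq2. Its estimates were positive for 2 of 44 members (50.2% of all genes), with a median of -0.44. An unadjusted p under 0.05 with a negative estimate was reached by 12 members, where the share of all genes was 3.86%, and with a positive one by none (5.12%). The estimate for Ifi27l2a was -0.84 (SE 0.22, adjusted p = 0.359), for Zbp1 -1.26 (SE 0.45, adjusted p = 0.464) and for Oas3 -1.64 (SE 0.49, adjusted p = 0.397). The change of Ifi27l2a after pregnancy is therefore not shown to differ between the diets.

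Upstream of the members, the interferons themselves were almost absent. Of 20 listed ligand genes, 14 had 0 counts in every library and none passed the filter. Ifng, interferon gamma, had 8 counts over the 12 libraries and Ifnb1, interferon beta, had 1. Library by library the whole list held at most 4 counts, so levels of these ligands were not comparable at this depth. The 11 receptor and JAK-STAT genes were measured, led by Jak1 (131 to 235 CPM) and Ifngr2, a chain of the interferon gamma receptor (132 to 177 CPM). Of these, Stat3, which mainly carries signals of the interleukin-6 family, rose postpartum on the Western diet by 0.57 on the log2 scale (SE 0.10, edgeR adjusted p = 0.0281). Its 3 postpartum libraries lay at 186, 155 and 198 CPM and the 3 nonpregnant ones at 113, 132 and 118 CPM. The list as a whole had a median of -0.02 in this comparison, with 1 of 11 called.

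Of 7 other interferon regulatory factors none passed in any of the 6 comparisons, and Irf3 (26.7 to 35.4 CPM) and Irf1 (20.0 to 39.5 CPM) had the highest levels. Of 21 genes that sense nucleic acids or relay their signal to interferon, 1 rose, Ifi204, a DNA sensor, in Western postpartum against control nonpregnant hearts (0.68, SE 0.14, edgeR adjusted p = 0.0253). The most abundant were Irak1 (77.3 to 87.0 CPM) and Mavs (54.2 to 80.8 CPM). Among 14 negative regulators 13 were measured and none passed, and Trex1, a DNA exonuclease, was listed at 0 in every library. How the counting treated reads shared by genes is not given, so this 0 does not show a silent gene. The most abundant were Ptpn11, the phosphatase SHP2 (216 to 395 CPM), and Samhd1, which depletes nucleotides (33.8 to 51.3 CPM).

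A further 74 interferon-induced genes outside the member list gave 71 measured genes. In nonpregnant hearts 66 of the 71 had positive estimates for the Western diet (49.9% of all genes), with a median of 0.30, and none passed. They were measured in the same libraries as the members, so they are not a separate observation. Of the 71, 55 were the highest of their group in control nonpregnant replicate 1 (38.7% of all genes). In Western nonpregnant replicate 1 it was 54 (37%), and in Western postpartum replicate 2 it was 56 (36%). In control postpartum hearts 35 were highest in replicate 2 (34.6%). The lowest was replicate 3 for 30 (32.4%) and replicate 1 for 28 (34.7%), beside 40 and 4 of the 44 members. In Western nonpregnant hearts 41 were lowest in replicate 3 (32.3%) and 24 in replicate 2 (31.4%), beside 16 and 24 of the members. B2m, the light chain of class I antigen-presenting molecules, was the most abundant, at 267, 181 and 160 CPM in control nonpregnant and 448, 287 and 252 CPM in Western nonpregnant hearts. Other GBP and IRG genes, chosen after their values were seen, were also highest in Western nonpregnant replicate 1. Irgm2 stood at 70.8 CPM there against 30.9 and 23.0 CPM in its group, and Gbp4 at 67.2 against 31.1 and 21.3 CPM.

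Gbp6 lacked the wide gap between Western nonpregnant replicate 1 and the rest of its group. It stood at 15.2, 14.6 and 17.6 CPM in control nonpregnant, 14.6, 15.2 and 19.6 in control postpartum, 24.4, 23.4 and 19.1 in Western nonpregnant and 37.6, 22.9 and 33.3 in Western postpartum hearts. It rose with the Western diet postpartum (log2 fold change 0.92, SE 0.16, edgeR adjusted p = 0.0173) and in Western postpartum against control nonpregnant hearts (0.99, SE 0.17, adjusted p = 0.0109). Without overlap in either comparison, it was highest in the 2 Western postpartum libraries in which most members were not highest. Close GBP paralogs may share its reads. In Western postpartum against control nonpregnant hearts Ifi205, a nuclear protein of the IFI200 family (1.298, SE 0.26, edgeR adjusted p = 0.0198), and Ly6e, a surface protein that restricts coronaviruses (0.29, SE 0.07, adjusted p = 0.0382), rose as well. With libraries left out in turn, the adjusted p of Gbp6 for diet postpartum reached 0.0966, and its call was lost without control postpartum replicates 1 or 2 or Western postpartum replicates 1 or 3. Against control nonpregnant hearts the calls of Gbp6, Ifi204, Ifi205 and Ly6e were all lost without control nonpregnant replicate 2, and those of Ifi204, Ifi205 and Ly6e also without Western postpartum replicate 1. Ifi204 was further lost without control nonpregnant replicate 3, and Ly6e without that library, control postpartum replicate 2, Western nonpregnant replicates 2 or 3 or Western postpartum replicate 2. The call of Stat3 was lost without any Western diet library other than Western postpartum replicate 2, at an adjusted p of up to 0.124.

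Markers of blood and immune cells were read beside these patterns, and their part in them was not tested. Summed erythrocyte markers were 705 CPM in control nonpregnant replicate 1 against 396 and 497 CPM, 760 CPM in control postpartum replicate 2 against 406 and 596 CPM, and 731 CPM in Western postpartum replicate 2 against 391 and 423 CPM, the libraries in which most members were highest. In Western nonpregnant replicate 1 they were the lowest of the group, at 346 CPM against 508 and 452 CPM. Sums over lymphocyte markers took in all 16, of which 9 passed the filter. They were 9.3 to 14.7 CPM in control nonpregnant and 11.1 to 14.3 in control postpartum hearts. Western nonpregnant hearts had 13.2 to 16.3 and Western postpartum hearts 9.8 to 11.1 CPM. The highest sum was in replicates 1, 3, 1 and 2 of these groups. The 18 macrophage markers summed to 343 to 417, 452 to 502, 362 to 441 and 423 to 497 CPM in that order, and the 11 fibroblast markers to 1974 to 2444, 2572 to 2668, 2390 to 2702 and 2390 to 2847 CPM. The 14 endothelial markers summed to 2110 to 2166, 2071 to 2098, 2303 to 2523 and 2340 to 2590 CPM. All 9 dendritic cell markers, of which 5 passed the filter, summed to 20.5 to 27.5 CPM over the libraries. All 10 neutrophil markers, of which 4 passed, summed to 3.7 to 11.6 CPM. No marker of these lists was at 0 in every library. Mitochondrial genes took 19.2% to 21.5% of the counts.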

How the data were processed

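The deposited values are raw counts per gene, which the authors made on GRCm38 (mm10). The submitters' processing notes name STAR 2.5.2b, Subread 1.5.2 with featureCounts, and FastQC. RNA was extracted with a Qiagen RNeasy kit and libraries made with the NEBNext Ultra RNA kit, per the labels. Which annotation release and strand setting were used is not given in the sources here, so overlapping genes and close paralogs may share counts. The authors' counts carry no molecular identifiers, and limits cover counting error only.

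Files were joined by gene identifier, and symbols came from the GENCODE annotation of GRCm38, which matched all 44 members and left 345 of 49315 genes without a symbol. Sting1 was matched through a RefSeq synonym. The members, role groups and pathway and marker lists were chosen with earlier results of these data known. In R 4.3.3, edgeR 4.0.16 kept 15476 genes (filterByExpr on the groups, with a minimum count of 10 and total of 15), used TMM scaling, and fitted 1 quasi-likelihood model of 4 group means to all 12 libraries. The 6 contrasts were tested by its two-sided F test with Benjamini-Hochberg adjustment over all genes of each contrast at 0.05. CPM uses the scaled library sizes, and log2 CPM a prior count of 2. RPKM divides CPM by the merged exon length in kilobases. Comparisons that share a group are not independent. Groups do not overlap where every library of 1 group lies above every library of the other.

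The rule for values in every library took members past the threshold in any comparison, the 2 with the highest mean CPM of each role and the 5 with the largest within-group SD. From the pathway lists it took called genes and the 2 most abundant. Genes such as Zbp1, Irgm2 and Gbp4 were named after their values were seen. The edgeR step was tested on simulated counts for Western against control diet postpartum (15269 genes). Of genes set to 1.5-fold it called 39 of 67, to 2-fold 44 of 65, to 4-fold 62 of 66, and of those left unchanged 7 of 15071. The changed genes were drawn at random from all genes tested, and each gene was simulated independently. The members had a larger median biological coefficient of variation (16.3% against 9.24%) and moved together, so these shares may not hold for them. Pairs of libraries in a group differed by 3.76 to 15.2 in chi-square per degree of freedom, so none was a copy of another. Alternatives were DESeq2 1.42.0, limma-voom (limma 3.58.1), DESeq2 size factors, edgeR's robust option, other filters, a fit of only the groups compared, and each library left out in turn. Promoter letters were read from RefSeq (GRCm38.p6).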

Additional observations from a re-analysis of the deposited data

How the results depend on the processing

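No paired analysis was possible because the labels give no replicate number that the groups share. Without a filter on low counts (29761 genes, infinite prior degrees of freedom against 5.74), edgeR called 7, 13, 27, 5, 4 and 15 members and 744, 933, 454, 1048, 1315 and 506 genes for postpartum on control and on Western diet, diet in nonpregnant and in postpartum hearts, Western postpartum against control nonpregnant, and the interaction. In the same order the main model called 1, 0, 0, 0, 0 and 0 members and 37, 91, 9, 136, 406 and 0 genes. DESeq2 called 1, 2, 4, 1, 1 and 0 members and 184, 361, 95, 456, 779 and 43 genes. With only the groups compared, the first 5 gave 6, 47, 0, 71 and 136 genes. The robust option gave 0 members after pregnancy on the control diet and 1 gene for the interaction, and a filter of 1 CPM gave 5 genes for diet in nonpregnant hearts. The cause of these shifts was not tested.

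With 1 library left out, genes called ran from 0 to 205, 0 to 472, 0 to 18, 30 to 490, 87 to 764 and 0 to 53, and members called from 0 to 1, 0 to 0, 0 to 0, 0 to 1, 0 to 1 and 0 to 1. The single members were Ifi27l2a, lower with the Western diet postpartum and in the interaction without Western postpartum replicate 2, and in Western postpartum against control nonpregnant Oas2 without that library and Ifi27l2a without replicate 3. Positive members ran from 28 to 40, 1 to 7, 43 to 44, 8 to 31, 21 to 40 and 0 to 4. Members' medians ran from 0.07 to 0.35, -0.43 to -0.16, 0.33 to 0.61, -0.17 to 0.08, -0.0042 to 0.31 and -0.59 to -0.31. Of estimates for single genes, 1 changed sign, Iigp1 for diet in nonpregnant hearts (-0.24 without Western nonpregnant replicate 1, up to 0.62 without replicate 3), 31 lost and 2 gained a call, and 410 kept their direction and side of the threshold. Under the other alternatives 4 lost and 35 gained a call and 214 kept both. The members' median within-group SD stayed between 0.26 and 0.31. The longer response element was found in 12 promoters. Low levels (Mx1, Oas3, Zbp1) and the interferon ligands are limited by depth.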
